A study of Mus musculus with 16 samples.

Results

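The comparison described here set Ly6D- CLP, common lymphoid progenitors of mouse bone marrow without the surface protein Ly6D, against HSC young, the haematopoietic stem cells of young adult mice. It used 5 of the 16 arrays of the series, chosen by their titles: 2 Ly6D- CLP arrays from mice of 8 to 12 weeks and 3 young HSC arrays from mice of 9 to 12 weeks. All 5 came from wild-type mice of the C57Bl6 strain, were labelled female and carried no treatment, and the replicates were labelled as biological. Cells were sorted straight into RNA extraction, and labelled cRNA was made from 4000 to 7000 cells per array. The labels give no sort gate other than Ly6D, and whether animals were pooled was not stated. The other 11 arrays were 2 of Ly6D+ CLP (8 to 12 weeks), 3 of HSC at 24 months, 3 of HSC from 32-week wild-type mice (Polgtm1Lrsn+/+) and 3 of HSC from 32-week mutator mice (Polgtm1Lrsn-/-). They helped to estimate the spread between replicates, and some of their values are set beside the comparison. The series as a whole was designed around stem cell ageing and mutation of mitochondrial DNA. The lymphoid progenitors add the step from stem cell to lymphoid progenitor in young wild-type marrow.

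As background, a stem cell that enters the lymphoid path first gains the receptor tyrosine kinase Flt3 and then the interleukin-7 receptor, whose signal through JAK kinases and STAT5 supports early lymphoid cells. Its nucleus comes under E2A, Ikaros and later EBF1 and PAX5, while factors that hold the stem cell state, such as MECOM, HLF and GATA2, are shut down. The recombinase RAG1/RAG2 then cuts antigen receptor genes, and terminal transferase, the product of Dntt, adds bases at the cut ends. Ly6D divides common lymphoid progenitors: cells without it keep broad lymphoid potential, and cells with it lean to the B lineage. Values are probe set intensities as deposited, differences are on the log2(intensity + 16) scale, and a gene was called when its adjusted p by limma, fitted over all 16 arrays, was under 0.05. Adding 16 understates the change of dim genes. In RNA from sorted pools, fewer cells of a type and less RNA per cell cannot be told apart.

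The arrays matched their cell type labels, whereas both progenitor arrays went against their sex label. Il7r, Flt3 and Dntt, the genes taken to mark lymphoid progenitors, were high on both Ly6D- CLP arrays, and the stem cell genes Slamf1, Procr, Mecom and Hlf were low there. Ly6d itself read 54.7 and 23.00 on the Ly6D- CLP arrays and 1758 and 1126 on the Ly6D+ CLP arrays. Xist, the RNA that silences a female X chromosome, lay between 3507 and 8041 on the young HSC arrays and between 10.1 and 16.8 on the Ly6D- CLP arrays. The Y-linked gene Eif2s3y was at most 9.25 in young HSC and at least 614 in Ly6D- CLP. Both Ly6D- CLP arrays, both Ly6D+ CLP arrays and replicate 3 of the 32-week wild-type HSC thus went against their female label. Genes of X and Y were left out for that reason, and for autosomal genes sex and cell type cannot be told apart within these 5 arrays. The ratio of 3′ to 5′ signal of the actin controls (log2) was 2.11 and 2.52 in Ly6D- CLP against 2.39 to 2.61 in young HSC, so the groups overlapped, whereas that of Gapdh was 2.80 to 3.05 against 3.15 to 3.32 and did not. The bioB hybridisation control read 3088 to 3364 on the Ly6D- CLP arrays and 263 to 511 on the young HSC arrays. The labels name no batch, and the part that sex, RNA quality or handling has in the results was not tested.

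Of 13894 autosomal or unplaced genes tested, 3357 (24.2%) differed between Ly6D- CLP and young HSC. Of these, 1342 (9.66% of genes tested) were higher in Ly6D- CLP and 2015 (14.5%) lower. The change was at least 2-fold for 833 (6% of genes tested) of the higher and 1555 (11.2%) of the lower genes, 2388 (17.2%) in all, and at least 8-fold for 70 and 122. The arrays of the 2 groups did not overlap for 57.5% of all genes tested, with Ly6D- CLP above for 26.9% and below for 30.6%. The median difference over all genes tested was 0.0028. Leaving out Ly6D- CLP replicate 2 reduced the number of lower calls to 1257. The 2 progenitor arrays differed from each other by over 2-fold at 1784 genes (12.8%), more than any pair of young HSC arrays, whose counts were 19 to 187.

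**Figure D1:**
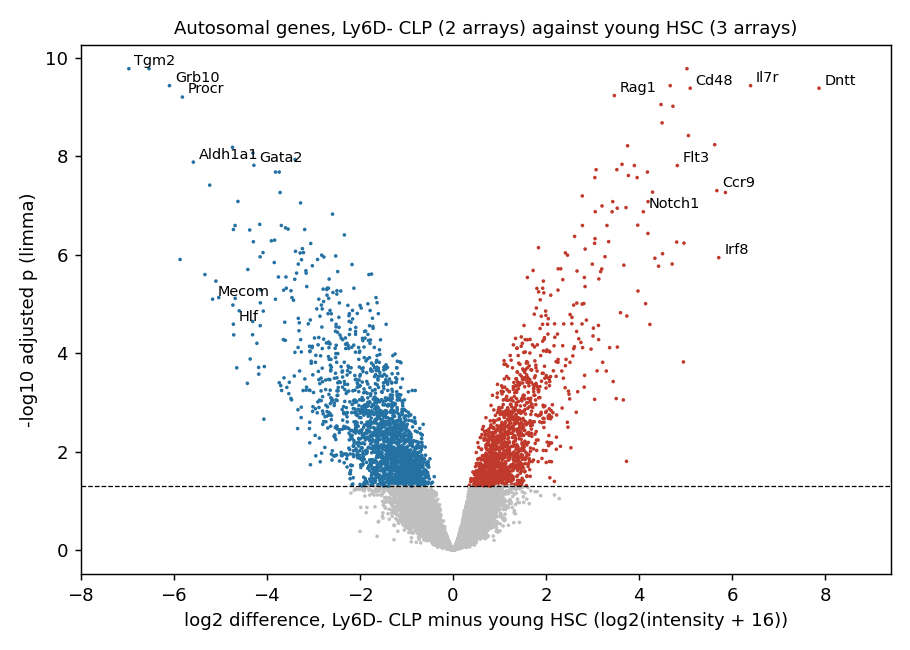
Each dot is an autosomal or unplaced gene, with the log2 difference between Ly6D- CLP and young HSC on the x axis and -log10 of the limma adjusted p on the y axis. Red and blue dots are the 1342 higher and 2015 lower genes called, grey dots the rest, and the dashed line marks an adjusted p of 0.05; Dntt and Il7r stand farthest to the right and Tgm2 farthest to the left.

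Most genes of the lymphoid progenitor list were higher in Ly6D- CLP than in young HSC. In the list of lymphoid progenitor identity, 12 of 17 members tested (18 of 20 symbols matched) were higher in Ly6D- CLP. This was 70.6%, against 9.66% of all genes, and the list's median difference was 2.66. The sole lower member was Ltb, the lymphotoxin beta gene, and its call was lost without Ly6D- CLP replicate 1. Dntt, which encodes terminal transferase, read 23.1, 22.00 and 19.9 on the young HSC arrays and 8869 and 8652 on the Ly6D- CLP arrays, and the groups were far apart. It had the largest rise of all genes named, log2 difference 7.86 ± 0.27 SE, adjusted p = 4.17e-10, or about 233-fold on this scale. Il7r, the alpha chain that the receptors for interleukin-7 and TSLP share, was at or under background in young HSC (12.2, 13.4 and 15.7) and read 2162 and 2851 in Ly6D- CLP (log2 difference 6.39 ± 0.20 SE, adjusted p = 3.70e-10). Flt3 was measurable in every young HSC array, at 179, 157 and 150.0, and read 5381 and 4645 in Ly6D- CLP. Its rise was 28.2-fold (log2 difference 4.82 ± 0.23 SE, adjusted p = 1.55e-08). On the Ly6D+ CLP arrays these genes read 8648 and 8783 for Dntt, 3417 and 3929.8 for Il7r and 3929 and 4687 for Flt3, and no test of that step was made here.

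To show the sequence beside genes that rose, fell or were not called, the 250 bases before the start of 5 genes are printed from RefSeq (GRCm38.p6), 5′ to 3′ on the gene's strand, with each E-box CANNTG, the letters that E proteins such as E2A bind, in capitals. Dntt, Il7r and Rag1 rose in Ly6D- CLP, Igll1, a surrogate light chain gene of pre-B cells, was not called, and Procr, a stem cell receptor gene, fell. The windows are chr19:41029025-41029274 (plus strand) for Dntt, chr15:9529877-9530126 (minus) for Il7r, chr2:101649533-101649782 (minus) for Rag1, chr16:16863986-16864235 (minus) for Igll1 and chr2:155750967-155751216 (plus) for Procr.
Dntt: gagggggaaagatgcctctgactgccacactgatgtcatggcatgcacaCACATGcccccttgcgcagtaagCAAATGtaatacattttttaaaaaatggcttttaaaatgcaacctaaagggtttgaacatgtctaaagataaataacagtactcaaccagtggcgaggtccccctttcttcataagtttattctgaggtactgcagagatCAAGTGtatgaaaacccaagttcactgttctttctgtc
Il7r: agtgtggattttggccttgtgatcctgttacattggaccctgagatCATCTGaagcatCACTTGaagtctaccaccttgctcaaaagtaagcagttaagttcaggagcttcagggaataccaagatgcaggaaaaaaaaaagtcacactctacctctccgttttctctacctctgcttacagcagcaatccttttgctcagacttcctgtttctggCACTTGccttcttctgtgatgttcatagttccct
Rag1: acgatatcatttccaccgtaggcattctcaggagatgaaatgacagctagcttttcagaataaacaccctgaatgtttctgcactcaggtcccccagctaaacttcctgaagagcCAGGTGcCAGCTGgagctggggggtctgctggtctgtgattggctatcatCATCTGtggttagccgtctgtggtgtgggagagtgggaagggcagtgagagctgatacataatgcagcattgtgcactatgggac
Igll1: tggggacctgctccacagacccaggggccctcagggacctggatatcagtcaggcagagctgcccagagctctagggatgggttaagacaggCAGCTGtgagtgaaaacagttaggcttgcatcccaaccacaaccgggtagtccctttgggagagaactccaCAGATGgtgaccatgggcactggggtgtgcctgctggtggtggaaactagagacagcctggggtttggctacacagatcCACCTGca
Procr: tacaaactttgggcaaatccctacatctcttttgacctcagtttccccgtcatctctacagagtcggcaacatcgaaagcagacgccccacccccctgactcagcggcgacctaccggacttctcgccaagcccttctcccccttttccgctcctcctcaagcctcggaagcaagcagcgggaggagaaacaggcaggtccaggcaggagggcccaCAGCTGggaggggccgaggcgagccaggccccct
The E-box letters stood 3 times in each of the windows of Dntt, Il7r, Rag1 and Igll1 and 1 time in that of Procr. They read the same on both strands, so a search of either finds the same places. Of 13894 genes tested, 11143 had a window, and 58.5% of these windows held at least 1 E-box. The share was 58.6% for genes called higher and 54.5% for genes called lower, both close to that of all genes. Its variant CAGGTG, which lies within the E-box letters, was found on either strand in 16.6% and 14.2%, against 16.2% of all. GATAAG, the letters of GATA factors, stood in 4.39% and 4.11% against 4.56%, TGTGGT, those of RUNX factors, in 11.3% and 8.72% against 11.1%, and CCCNNGGG, within the EBF1 motif, in 15.8% and 16.9% against 15.5%. These are descriptions of letters in a short window.

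Antigen receptor recombination genes rose unevenly. In that list, 6 of 12 members tested (12 of 14 symbols matched) were higher (50%, against 9.66% of all genes). The other 6 were not called, and the median difference was 0.56. Prkdc, among the higher members, lost its call with 4 of the 5 arrays left out in turn. Rag1 was at or under background in young HSC (8.84, 8.95 and 8.53) and read 253 and 263 in Ly6D- CLP, a log2 difference 3.47 ± 0.12 SE, adjusted p = 5.88e-10. Both Ly6D+ CLP arrays stood far above that, at 3982 and 4264. Rag2, the partner of Rag1 in the recombinase, read 24.9, 21.6 and 17.2 in young HSC and 341 and 137 in Ly6D- CLP (log2 difference 2.66 ± 0.30 SE, adjusted p = 3.62e-05), and its values in Ly6D+ CLP were 390.4 and 361. Xrcc6, which encodes the Ku70 protein that binds broken DNA ends, rose 3.88-fold, from 593, 664 and 575 to 2638 and 2202. Its partner Xrcc5 (Ku80) was not called and read 313, 280.1 and 288 in young HSC and 192 and 126 in Ly6D- CLP (adjusted p = 0.182). Poll, a DNA polymerase of end joining, had a log2 difference 1.33 ± 0.34 SE, adjusted p = 0.0129, and its call was lost without Ly6D- CLP replicate 2.

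Some transcription factors of the lymphoid path rose, and the share that fell was near that of all genes. Of 33 members tested (33 of 34 symbols matched), 9 were higher (27.3%, against 9.66% of all genes), and the median was 0.19. The 5 lower members made up 15.2%, near the 14.5% of all genes, and were fewer without Ly6D- CLP replicate 2. The lower members were Ikzf2, Tcf12, Foxo1, Gata3 and Zbtb16. Ikzf2 lost its call with 4 of the 5 arrays left out in turn and Tcf12 without Ly6D- CLP replicate 2. Irf8, which serves B cell, dendritic and monocyte development, read 44.9, 40.2 and 79.4 in young HSC and 3197 and 4031 in Ly6D- CLP, a 52.4-fold rise (log2 difference 5.71 ± 0.44 SE, adjusted p = 1.15e-06). Satb1, a chromatin organiser of lymphoid cells, read 142, 77.6 and 85.1 against 3415 and 2967 (log2 difference 4.81 ± 0.34 SE, adjusted p = 5.55e-07). For both genes the groups were widely separated, and the Ly6D+ CLP arrays (3202 and 4155 and 3241 and 2983) lay beside those of Ly6D- CLP. Ikzf1, the Ikaros gene, was already present in young HSC at 1369, 1680.2 and 1686 and rose 2.45-fold to 3944 and 3794. Tcf3, which encodes E2A, read 316, 314 and 342 in young HSC and 1122 and 503 in Ly6D- CLP (log2 difference 1.18 ± 0.26 SE, adjusted p = 0.00555), and that call was lost without Ly6D- CLP replicate 1. Nfil3, a factor of innate lymphoid cells, rose by less, to 51.8 and 98.6 from 16.6, 18.1 and 17.5.

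Ebf1, the factor that specifies B cells, was at or under background in young HSC and rose in Ly6D- CLP. Its probe set read 6.95, 6.40 and 7.42 in young HSC and 115 and 52.6 in Ly6D- CLP (log2 difference 2.05 ± 0.21 SE, adjusted p = 2.00e-05), against 1651 and 2051 in Ly6D+ CLP. Pax5, which locks in the B lineage, was not called (19.7, 19.2 and 17.8 in young HSC, 23.5 and 24.01 in Ly6D- CLP, adjusted p = 0.7). Foxo1, a regulator of Il7r and the Rag genes, fell from 891, 863 and 867 to 338 and 326 (log2 difference -1.35 ± 0.31 SE, adjusted p = 0.00716), and its Ly6D+ CLP values were 1774 and 2308. Its 4 probe sets disagreed, with differences from -1.35 to 0.67. Gata3, needed by T cells and innate lymphoid cells, fell by 1.21 on the log2 scale, from 63.2, 69.6 and 61.6 to 16.6 and 21.2. Zbtb16, the factor of innate-like lymphocytes, likewise fell, from 66.9, 85.9 and 70.9 to 29.8 and 27.2. Mef2c (2021, 2345 and 2358 against 2254 and 1707), Myb (9179, 9177 and 9658 against 6683 and 7897) and Sox4 (2454, 2375 and 2301 against 2947 and 3829) were bright in both cell types and not called, with adjusted p of 0.482, 0.154 and 0.138.

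**Figure D2:**
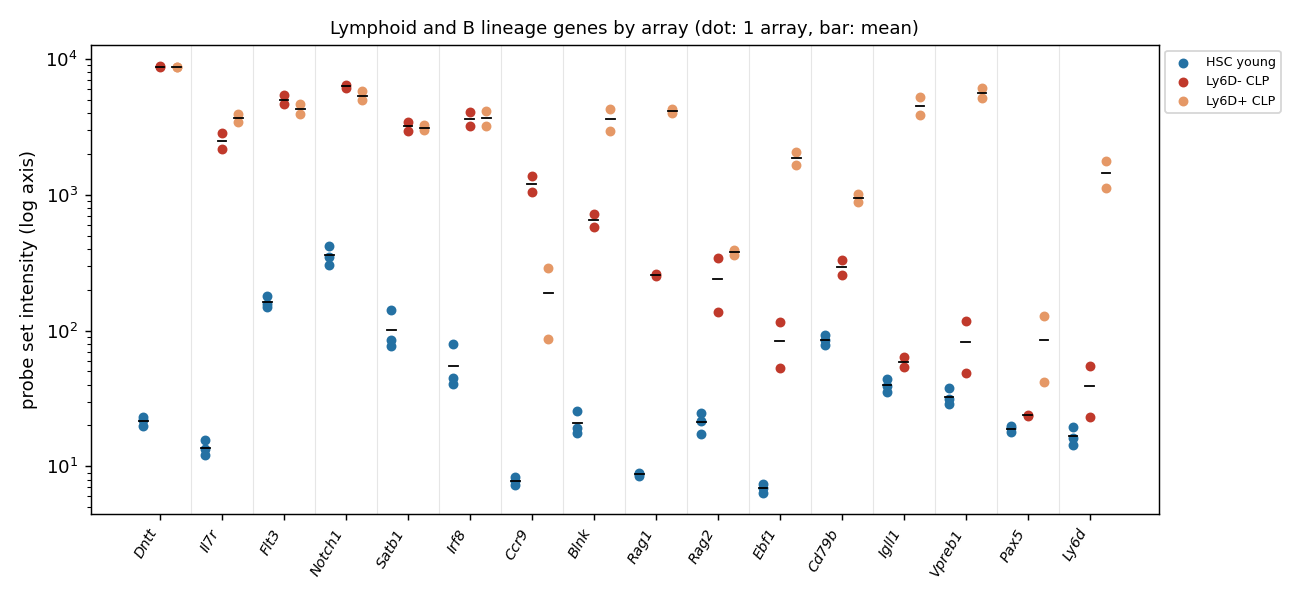
Probe set intensity (log axis) of 16 lymphoid and B lineage genes, with a dot for each array of young HSC (blue), Ly6D- CLP (red) and Ly6D+ CLP (orange) and a bar at each mean. From Dntt to Irf8 the red dots lie next to the orange ones, whereas for Rag1, Ebf1, Igll1, Vpreb1 and Ly6d they lie between blue and orange or near blue.

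B cell genes rose in part. Of 21 members tested (22 of 25 symbols matched), 11 were higher (52.4%, against 9.66% of all genes). The other 10 were not called, and the median was 0.94. Blnk, the adaptor that carries the B cell receptor signal, rose 18.1-fold, from 19.3, 17.7 and 25.6 to 579 and 725, and read 4283 and 2939.7 in Ly6D+ CLP. Btla, an inhibitory receptor of lymphocytes, read 15.5, 15.7 and 19.8 in young HSC and 835 and 1225 in Ly6D- CLP (log2 difference 4.96 ± 0.35 SE, adjusted p = 5.82e-07). Its Ly6D+ CLP values, 642 and 181, were below both Ly6D- CLP arrays. Cd79b, which encodes a signalling chain of the B cell receptor, rose 3.04-fold (92.9, 78.1 and 85.9 to 258 and 329.9) and Cd37, a tetraspanin of B cells, 8.24-fold (87.5, 111 and 95.05 to 533 and 1572). The other signalling chain, Cd79a, was not called (adjusted p = 0.92) and was at or under background in both groups. The surrogate light chain genes were not called: Igll1 read 44.1, 35.1 and 38.96 against 63.9 and 53.8 (adjusted p = 0.253) and Vpreb1 28.8, 37.6 and 31.2 against 48.6 and 117 (adjusted p = 0.0676). In Ly6D+ CLP they read 5222 and 3841 and 6086 and 5117. Cd24a, a sort marker of B cell stages, was bright in both cell types, at 5593, 5189 and 5219 and 4575 and 4198. Of 10 markers of mature B and plasma cells tested, 4 were higher (Cd22, Sdc1, Mzb1 and Fcmr), or 40% against 9.66% of all genes, and the list's mean log2 level was 5.72 to 5.84 in young HSC and 6.28 and 6.01 in Ly6D- CLP. Mzb1 and Sdc1, genes of antibody-secreting cells, read 226 and 95.1 and 220.3 and 95.1 in Ly6D- CLP. Cd22 lost its call with 4 of the 5 arrays left out in turn. The part of mature B and plasma cells in the B lineage values was not tested.

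Notch1 rose steeply, and genes of the T cell receptor complex were not called. In this list 6 of 21 members tested (24 of 27 symbols matched) were higher (28.6%, against 9.66% of all genes), with a median of 0.28. The 2 lower members made up 9.52%, under the 14.5% of all genes, and were fewer without Ly6D- CLP replicate 1. The lower members were Nrarp and Gata3. Notch1, the receptor that starts T cell development in the thymus, rose 17-fold, from 303, 348 and 420.2 to 6114 and 6449.5 (log2 difference 4.09 ± 0.25 SE, adjusted p = 1.35e-07). Its Ly6D+ CLP values were 5787 and 4951. Notch2 was not called (1623, 2493 and 2299 and 1518 and 1959.8, adjusted p = 0.613). Dtx4, of the Deltex family of Notch regulators, rose 8.29-fold, whereas Nrarp, a target that feeds back on Notch, fell by 1.32 on the log2 scale, a call lost without Ly6D- CLP replicate 1. Cd3e, of the T cell receptor complex, was not called (61.8, 54.4 and 55.3 against 68.2 and 77.1), nor was its kinase Zap70 (adjusted p = 0.838).

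Homing receptors changed too. Ccr9, the receptor for the thymic and gut chemokine CCL25, was at or under background on all young HSC arrays (7.86, 7.34 and 8.37) and read 1051 and 1366 in Ly6D- CLP (log2 difference 5.67 ± 0.31 SE, adjusted p = 5.01e-08). Its Ly6D+ CLP arrays lay between, at 86.2 and 289.9. Selplg, the P-selectin ligand used to enter the thymus, rose 3.1-fold (757, 752 and 797 to 2495 and 2339). In the list of trafficking receptors 5 of 15 tested (20 of 23 symbols matched) were higher and 5 lower, 33.3% each. The shares of all genes were 9.66% and 14.5%. Fewer were lower without Ly6D- CLP replicate 2, and the median was 0.23. The higher members were Ccr7, Ccr9, Selplg, P2ry14 and Cd44, and the lower ones Ccrl2, S1pr1, S1pr2, S1pr4 and Ptger4. Ccrl2 lost its call with 3 of the 5 arrays left out in turn, S1pr2 without Ly6D- CLP replicate 1 and S1pr4 without Ly6D- CLP replicate 2. The UDP-glucose receptor gene P2ry14 read 134, 113 and 125 against 404 and 454. Ptger4, a receptor for prostaglandin E2, fell by 1.78 on the log2 scale, and S1pr1, a receptor for sphingosine-1-phosphate, fell by 1.15 on the log2 scale. Ptger2, another prostaglandin E2 receptor, went the other way: it was at or under background in young HSC and read 948 and 783 in Ly6D- CLP (log2 difference 5.03 ± 0.14 SE, adjusted p = 1.68e-10). Cxcr4, the receptor that holds cells in marrow, was not called (198, 167 and 159 against 288 and 228, adjusted p = 0.45).

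Some genes of T, NK and innate cells rose as well. Of the list of NK, innate lymphoid and dendritic genes, 4 of 17 tested were higher (23.5%, against 9.66% of all genes). Zbtb16 was the sole lower member (5.88%, against 14.5% of all genes). In this list 22 of 23 symbols matched, and the median was 0.13. The higher members were Klrd1, Nkg7, Il18r1 and Flt3, and Il18r1 lost its call without HSC young replicate 2 or Ly6D- CLP replicate 2. Klrd1, which encodes the NK receptor CD94, was at or under background in young HSC and read 164 and 211 in Ly6D- CLP (log2 difference 3.04 ± 0.22 SE, adjusted p = 5.88e-07). Nkg7, a granule protein gene of cytotoxic cells, read 186, 130.5 and 133 against 891 and 709.7 (log2 difference 2.31 ± 0.54 SE, adjusted p = 0.00779). Of 12 markers of mature T and NK cells tested, 5 were higher (Cd5, Cd6, Cd28, Nkg7 and Klrd1), or 41.7% against 9.66% of all genes. The list's mean log2 level was 5.34 to 5.49 in young HSC and 6.34 and 6.37 in Ly6D- CLP. Cd28, Cd6 and Cd5, receptors of T cells, read 144 and 46.9, 74.00 and 99.8 and 42.6 and 104 there, while Cd3e, Cd8a and Ccl5 were not called. Whether a few mature cells were among those sorted was not tested.

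Several cytokine receptors rose, and the share that fell was near that of all genes. In the list 14 of 46 members tested (47 of 49 symbols matched) were higher (30.4%, against 9.66% of all genes). The 6 lower members made up 13%, near the 14.5% of all genes, and the list's median was 0.23. The higher count fell to 7 without Ly6D- CLP replicate 2 and to 8 without HSC young replicate 2. Kit, the receptor for stem cell factor, fell 6.22-fold but stayed measurable (2391, 3603 and 3585 in young HSC and 409.6 and 588 in Ly6D- CLP). Tek, which encodes the angiopoietin receptor TIE2, fell from 499.6, 582 and 582 to background (16.6 and 14.4, log2 difference -4.18 ± 0.57 SE, adjusted p = 1.94e-04). Tgfbr3, the betaglycan gene, fell 13.3-fold, whereas Tgfbr2, a signalling receptor for TGF-beta, was not called (adjusted p = 0.681). Pdgfrb, which encodes a receptor better known from stroma, rose from 47.8, 60.1 and 78.6 to 613 and 1206 (log2 difference 3.51 ± 0.58 SE, adjusted p = 8.35e-04). In the list of stroma and endothelium markers, which holds Pdgfrb, 2 of 12 were higher (16.7%, against 9.66% of all genes), Pdgfrb and Pecam1. The 5 lower members (41.7%, against 14.5% of all genes) were Col1a2, Cxcl12, Emcn, Adipoq and Lpl, and fewer were lower with either Ly6D- CLP array left out. Of these, Cxcl12 lost its call without either Ly6D- CLP array and Adipoq with 4 of the 5 arrays left out in turn. The part of such cells in the rise of Pdgfrb was not tested. Crlf2, the partner of Il7r in the TSLP receptor, was not called and read 885, 736 and 808 in young HSC and 906 and 973 in Ly6D- CLP.

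Downstream of these receptors, 10 of 25 genes of JAK-STAT signalling and its feedback were lower (40%, against 14.5% of all genes). The 3 higher members made up 12%, near the 9.66% of all genes (25 of 26 symbols matched, median -0.26). The higher members were Stat2, Sh2b3 and Myc, and Stat2 lost its call with 4 of the 5 arrays left out in turn. The lower count was not stable: it was 2 without Ly6D- CLP replicate 2 and 4 without HSC young replicate 2 or 3. Myc rose 2.78-fold, from 511, 558 and 523 to 1286 and 1760.0 (log2 difference 1.48 ± 0.25 SE, adjusted p = 8.58e-04). Socs7, of the family of cytokine signal suppressors, fell 5.18-fold, but its 3 probe sets disagreed (-2.37 to 0.15). Jak2 had a log2 difference -1.28 ± 0.36 SE, adjusted p = 0.0199 and lost its call without HSC young replicate 2, HSC young replicate 3 or Ly6D- CLP replicate 2. Bcl2, the survival gene, read 71.8, 387 and 401 in young HSC and 761 and 1576 in Ly6D- CLP and was not called (adjusted p = 0.0758).

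Many stem cell transcription factors fell. Of 37 stem cell transcription factors tested (38 of 40 symbols matched), 20 were lower (54.1%, against 14.5% of all genes), with a median of -1.01. Fewer were lower when any of the 5 arrays was left out. The 3 higher members made up 8.11%, near the 9.66% of all genes, and were fewer without Ly6D- CLP replicate 2. Those that rose were Gfi1, Lyl1 and Hmga2. Gfi1 lost its call without either Ly6D- CLP array and Hmga2 without HSC young replicate 2 or Ly6D- CLP replicate 2. Mecom, which encodes the stem cell factor EVI1, read 2035, 2734 and 2760.4 in young HSC and 14.3 and 144 in Ly6D- CLP (log2 difference -5.17 ± 0.49 SE, adjusted p = 8.02e-06), and the progenitor arrays, though low, differed from each other. Hlf, a factor of quiescent stem cells, behaved alike, with 1905, 1966 and 2181 against 29.02 and 114 (log2 difference -4.73 ± 0.46 SE, adjusted p = 1.06e-05). Gata2, central to stem cell and myeloid identity, fell 19.4-fold, from 1836, 1966 and 1867 to 73.3 and 92.00. The 2 groups did not overlap for any of these genes, and the 9 other HSC arrays (at least 1123, 1402 and 1017) also lay above both progenitor arrays. Mllt3, a chromatin reader that supports stem cells, fell 19.8-fold (1131, 1629 and 1572 to 81.3 and 38.8). Prdm16, a relative of Mecom, fell from 669.7, 867 and 738 to 30.6 and 13.9, although its 4 probe sets ranged from -4.37 to 0.34.

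Other stem cell factors fell by less or were not called. Tal1, a partner of GATA factors, fell 6.51-fold (1295, 1327 and 1393 to 231 and 159) and Meis1, the cofactor of HOX proteins, 3.89-fold (4868, 4709 and 4132 to 1429 and 941). Hoxa9 stayed bright, at 4509, 4819.5 and 4850.3 in young HSC and 3978 and 3829 in Ly6D- CLP, and was not called (log2 difference -0.27 ± 0.25 SE, adjusted p = 0.486). Its Ly6D+ CLP values were 1055 and 1605. Lmo2, a bridging protein of the same complexes as Tal1, read 4276, 4361 and 4529 against 3342 and 2865 (adjusted p = 0.237) and 1065 and 1335 in Ly6D+ CLP. Etv6, needed to keep stem cells in marrow, was likewise not called (adjusted p = 0.904).

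**Figure D3:**
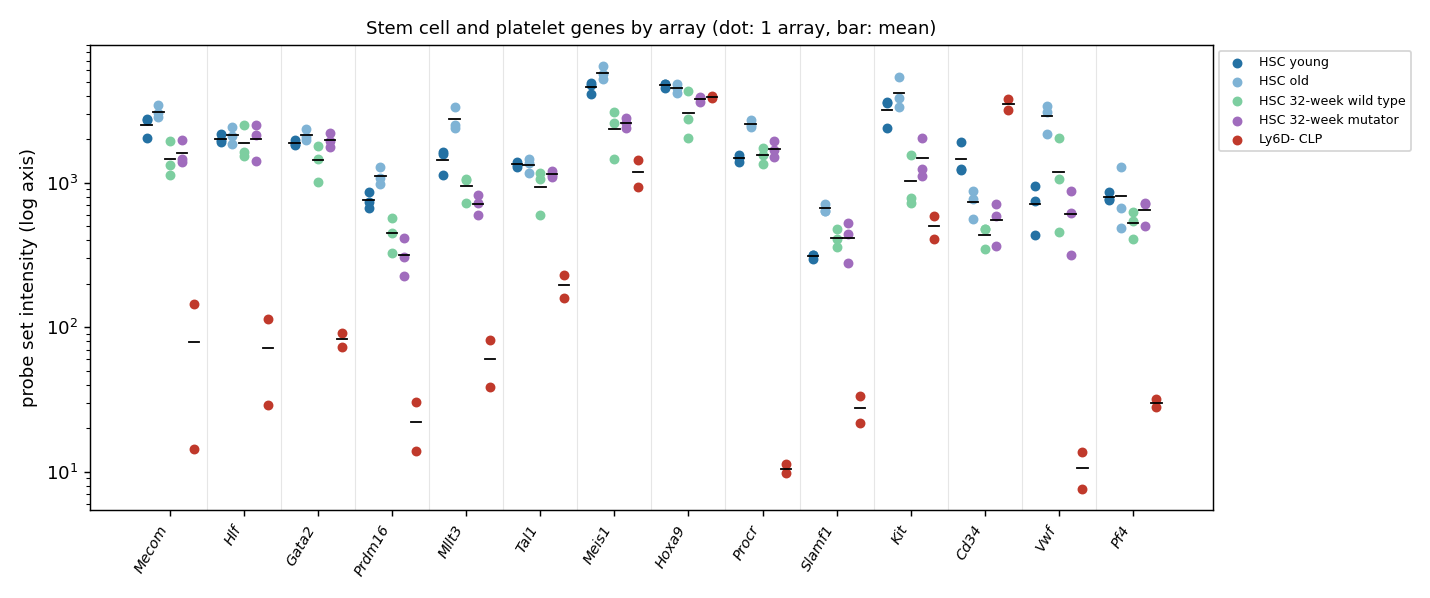
Probe set intensity (log axis) of 14 stem cell and platelet genes, with a dot for each array of the 4 HSC groups and of Ly6D- CLP (red) and a bar at each mean. Red dots lie far below every HSC group for Mecom, Hlf, Gata2, Procr, Slamf1 and Pf4, among them for Hoxa9, and above them for Cd34.

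At the cell surface the change was as broad. Of 36 stem cell surface and niche genes tested (36 of 41 symbols matched), 22 were lower (61.1%, against 14.5% of all genes), and the median was -1.51. The 3 higher members made up 8.33%, near the 9.66% of all genes. Those that rose were Cd48, Cd34 and Cd44; the 3 probe sets of Cd44 disagreed in sign. Procr, which encodes the protein C receptor used to sort stem cells, fell from 1554, 1479.6 and 1401 to background (11.3 and 9.76, log2 difference -5.81 ± 0.21 SE, adjusted p = 6.31e-10). Slamf1, which encodes CD150, read 315, 298 and 315 in young HSC and 21.9 and 33.4 in Ly6D- CLP (log2 difference -2.91 ± 0.22 SE, adjusted p = 1.25e-06). Its SLAM family relative Cd48, by convention absent from stem cells and present on progenitors, did the reverse: it read 32.97, 21.6 and 30.3 and rose to 1741 and 1275, a 34.2-fold change (log2 difference 5.10 ± 0.17 SE, adjusted p = 4.17e-10). Cd34, a sialomucin of progenitors, read 1917, 1223 and 1241 against 3818 and 3207 (log2 difference 1.28 ± 0.32 SE, adjusted p = 0.0117), a call lost without Ly6D- CLP replicate 1. Aldh1a1, the retinaldehyde dehydrogenase, read 1521, 1859 and 1758 in young HSC and 31.8 and 11.2 in Ly6D- CLP (log2 difference -5.58 ± 0.26 SE, adjusted p = 1.32e-08). Abcg2, the transporter behind the side population stain, fell 6.09-fold. Cd81, Ly6e and Adgrg1 were the brightest members that were not called.

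Genes that tie stem cells to their surroundings also fell. In the list of adhesion and junction genes 12 of 30 tested (32 of 34 symbols matched) were lower (40%, against 14.5% of all genes), with a median of -0.64. Of the lower members, Esam, Jam2, Jam3, Ctnnal1, Itga6 and Itgb3 are also counted in the stem cell surface list. The 4 higher members (13.3%, against 9.66% of all genes) were Itgal, Itgb7, Pecam1 and Sdc1. Itgb7 lost its call without HSC young replicate 2 or Ly6D- CLP replicate 2. Tjp1, which encodes the tight junction protein ZO-1, fell to background, from 257, 359.8 and 394 to 16.5 and 11.9. Itga6, an integrin chain that binds laminin, fell 9.82-fold (898, 1110.3 and 1195 to 69.02 and 125) and Esam, an endothelial adhesion gene used as a stem cell marker, 7.25-fold (678, 607 and 684 to 133 and 41.5). Itgal, which encodes a chain of the lymphocyte integrin LFA-1, rose 13.2-fold, from 53.03, 55.9 and 42.7 to 827 and 887 (log2 difference 3.72 ± 0.22 SE, adjusted p = 1.11e-07). Itga4, which binds VCAM1, was not called (686, 1081 and 1108 and 747 and 958).

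Megakaryocyte genes, many of which stem cells also express, fell. Of 22 tested (23 of 27 symbols matched), 14 were lower (63.6%, against 14.5% of all genes), and the median was -1.43. Of the lower members, Vwf, Itga2b, Itgb3, Selp, Cd9, Nfe2, Gfi1b and Fli1 are also counted in the stem cell lists above. The sole higher member, Plek, lost its call when any of the 5 arrays was left out. Vwf, the von Willebrand factor gene, varied among young HSC (434, 751 and 954) and was at background in Ly6D- CLP (13.8 and 7.59, log2 difference -4.71 ± 0.53 SE, adjusted p = 4.25e-05). Pf4, platelet factor 4, read 861, 761 and 772 against 32.1 and 27.95 (log2 difference -4.14 ± 0.32 SE, adjusted p = 1.11e-06). Itga2b and Itgb3, the chains of the platelet fibrinogen receptor, read 569, 737 and 704 and 473, 598 and 459 in young HSC and 71.7 and 43.7 and 15.95 and 11.5 in Ly6D- CLP. F2r, a thrombin receptor, fell 7.27-fold but stayed at 529 and 810.4. Treml1, Gp9 and Tubb1, which mark later megakaryocytes and platelets, were low and not called.

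Erythroid, heme and iron genes changed less: 5 of 26 tested (27 of 32 symbols matched) were lower (Gfi1b, Tal1, Car2, Rhag and Aqp1), near the 14.5% of all genes, with a median of -0.27. Rhag lost its call with 4 of the 5 arrays left out in turn. Tfr2, an iron sensor of erythroid cells that is not in this list, fell 34.1-fold (2423, 2322 and 2366 to 23.9 and 106) and Car2, a carbonic anhydrase, 5.18-fold (4862, 4518 and 5887 to 953 and 973). Tfrc, the receptor that takes up transferrin iron, was the sole higher member, at 389.5, 552 and 484 against 1251 and 1541, and lost its call without Ly6D- CLP replicate 2. Fth1, the ferritin heavy chain gene, was not called (5811, 5678 and 5309 and 6189 and 5614).

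Many myeloid genes rose. Of 31 tested (32 of 35 symbols matched), 12 were higher (38.7%, against 9.66% of all genes), with a median of 0.62. The 3 lower members (9.68%, against 14.5% of all genes) were Prtn3, Lyz1 and Cyba. Cyba and the higher members Csf2ra and Csf2rb lost their calls when any of the 5 arrays was left out. Gfi1, also higher, lost its call without either Ly6D- CLP array. Ncf1 and Ncf4, subunits of the phagocyte oxidase, rose 19.5-fold and 6.41-fold: Ncf1 read 166, 179.8 and 167 in young HSC and 2591 and 5090.2 in Ly6D- CLP. Ly86, which encodes MD-1, the partner of the receptor RP105, read 25.6, 22.9 and 29.6 against 500.3 and 433 (log2 difference 3.52 ± 0.18 SE, adjusted p = 1.88e-08), and Tyrobp, the DAP12 adaptor gene, 80.8, 85.7 and 90.3 against 818 and 794 (log2 difference 3.02 ± 0.33 SE, adjusted p = 3.11e-05). Mpo, the myeloperoxidase gene, read 216, 299 and 319 in young HSC and 4402 and 3335 in Ly6D- CLP (log2 difference 3.73 ± 0.998 SE, adjusted p = 0.0157). Although its groups were far apart, the call was lost without either Ly6D- CLP array. Prtn3, which encodes another primary granule protease, fell 3.86-fold (1397, 1063 and 1147 to 303 and 292). Csf3r (247, 219 and 216 against 442 and 594), Lyz2 and Zeb2 were not called, with adjusted p of 0.0722, 0.0679 and 0.944.

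Granule transcripts of neutrophils varied between replicates of both cell types. The mean log2 level of that marker list, which includes Mpo and Prtn3, was 7.10, 8.88 and 7.73 on the young HSC arrays and 6.18 and 8.78 on the Ly6D- CLP arrays. S100a8, a calprotectin chain of neutrophils, read 508, 1939.5 and 567 in young HSC and 16.1 and 1371 in Ly6D- CLP, and Camp, a secondary granule gene, 148, 563 and 162 and 33.8 and 821. HSC young replicate 2 and Ly6D- CLP replicate 2 were the high arrays for both genes. The groups overlapped, and neither gene was called. The part of neutrophil RNA in the myeloid values was not tested. Macrophage markers were lower for 3 of 12 tested (25%, against 14.5% of all genes), Vcam1, Hpgd and Axl. The calls of Vcam1 and Axl were lost without Ly6D- CLP replicate 1, and the probe sets of Vcam1 and of Hpgd disagreed in sign. Late erythroid markers (mean log2 level 5.71 to 6.67 in young HSC, 5.26 and 6.08 in Ly6D- CLP) overlapped, and markers of mast cells, basophils and eosinophils (5.22 to 5.36 against 5.41 and 5.26) did too.

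**Figure D4:**
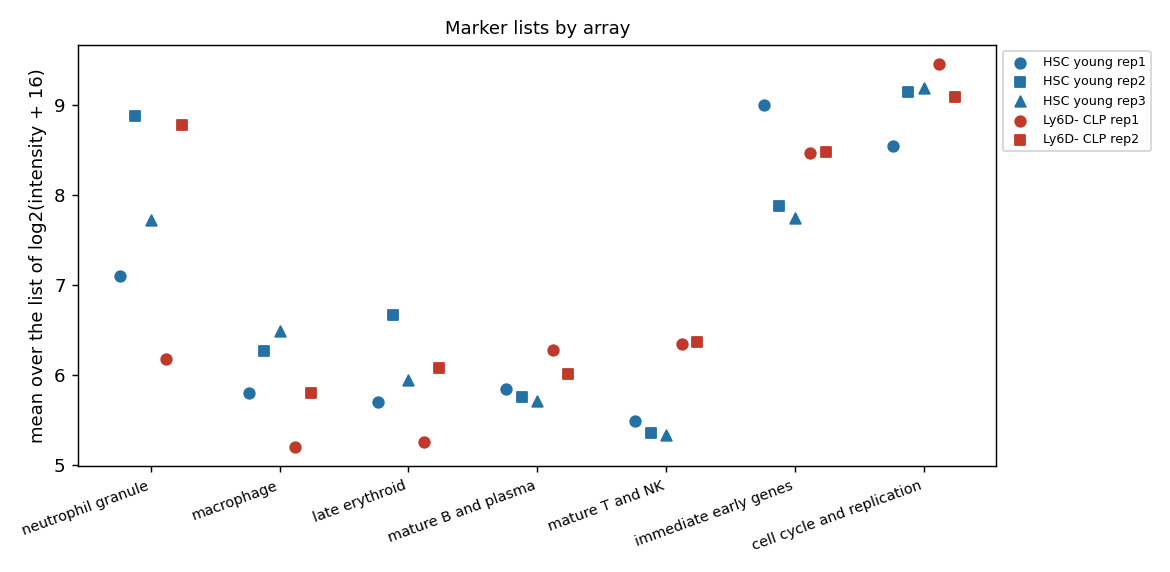
Mean of log2(intensity + 16) over each of 7 lists, with a symbol for each of the 3 young HSC arrays (blue) and the 2 Ly6D- CLP arrays (red). The neutrophil list is high on replicate 2 of each cell type, immediate early genes are highest on HSC young replicate 1, and the cell cycle list is lowest on that same array.

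Few cell cycle genes were called. Of 48 genes tested (48 of 50 symbols matched), 4 were higher (Cdt1, Gins2, Mcm6 and Foxm1) and 1 lower (Ccne2), under the shares of all genes (9.66% and 14.5%), with a median of 0.37. Mki67, the proliferation marker, read 972, 3265 and 3418 in young HSC and 3095 and 2874 in Ly6D- CLP (adjusted p = 0.67), and HSC young replicate 1 was the low array. Cdt1, which licenses origins of replication, rose 3.11-fold (1839.9, 2052 and 1929.8 to 6751 and 5454) and Mcm6, of the replicative helicase, 1.77-fold (2673, 2468 and 2125 to 4537 and 4036). Of the higher calls, that of Gins2 was lost without HSC young replicate 2 or Ly6D- CLP replicate 2 and that of Foxm1 without HSC young replicate 1 or either Ly6D- CLP array. The call of Ccne2, a cyclin of S phase entry, was lost without HSC young replicate 2, HSC young replicate 3 or Ly6D- CLP replicate 2. Pcna and Top2a were not called.

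Some regulators of entry into the cycle changed by more. Cdk6, the G1 kinase, rose 4.01-fold, from 1022, 1439.8 and 1447 to 5149.9 and 5272 (log2 difference 2.004 ± 0.29 SE, adjusted p = 2.84e-04). Cdkn1c, which encodes the inhibitor p57 that keeps stem cells quiescent, fell 8.47-fold (335, 297 and 305 to 14.4 and 33.3). Cdkn1b (p27) fell from 433, 509.8 and 522 to 219 and 211, but its 2 probe sets had opposite signs (-1.12 to 0.29). In the list of CDK inhibitors, D cyclins and their kinases, 2 of 21 tested were higher and 3 lower, Cdkn1b, Cdkn1c and Ccng1 (23 of 23 symbols matched, median -0.47). These shares, 9.52% and 14.3%, were close to the 9.66% and 14.5% of all genes. The other higher member, Ccnd2, had a log2 difference 1.13 ± 0.31 SE, adjusted p = 0.0176, lost its call without HSC young replicate 1 or Ly6D- CLP replicate 2, and had probe sets of both signs.

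Most stress and survival genes were not called. Of 21 Trp53 targets tested (23 of 25 symbols matched), 4 were lower (Ccng1, Perp, Gadd45a and Zmat3), or 19% against 14.5% of all genes, and the call of Zmat3 was lost without Ly6D- CLP replicate 2. The sole higher one, Phlda3, lost its call with 4 of the 5 arrays left out in turn. Gadd45a, a growth arrest gene, fell 5.45-fold (223, 145 and 156 to 20.9 and 16.1) and Perp, an adhesion and death gene, 2.98-fold, while Mdm2 and Sesn1 were not called. Of 14 Bcl2 family genes tested (15 of 20 symbols matched), 2 were higher (14.3%, against 9.66% of all genes) and 1 lower (7.14%, against 14.5%). Bmf, a death activator, was higher (20.2, 37.3 and 22.5 to 188 and 138, log2 difference 2.08 ± 0.39 SE, adjusted p = 0.00208) and Bnip3, of mitophagy, lower (1034, 812 and 662 to 375 and 171, log2 difference -1.63 ± 0.30 SE, adjusted p = 0.00165). The call of the other higher member, Hrk, was lost without HSC young replicate 2 or 3 or either Ly6D- CLP array. The medians of these lists (-0.02 and 0.04) changed sign under some settings. Genes of DNA repair had 5 higher of 29 tested (17.2%, against 9.66% of all genes; 3 without Ly6D- CLP replicate 2), which were Fanca, Fancd2, Fanci, Xrcc1 and Parp1, and the other 24 were not called. Fanca, Fancd2 and Xrcc1 lost their call without Ly6D- CLP replicate 2. Parp1, the sensor of strand breaks (867, 993 and 922 to 2269 and 1655), kept its call with each of the 5 arrays left out in turn. So did Fanci, of the Fanconi pathway (99.8, 120.3 and 124 to 283 and 391).

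Few chromatin genes were called. Of 29 tested (29 of 31 symbols matched), 3 were higher (Dnmt1, Cbx2 and Phc2) and 4 lower (Suz12, Bmi1, Rnf2 and Cbx6; 2 without Ly6D- CLP replicate 2), near the shares of all genes, and the median of 0.12 changed sign under some settings. Phc2 lost its call with 4 of the 5 arrays left out in turn, Suz12 and Cbx6 without Ly6D- CLP replicate 1 and Rnf2 without Ly6D- CLP replicate 2. Dnmt1, the maintenance methyltransferase, rose 2.21-fold (1512, 1960.3 and 1948 to 3897 and 4074) and Cbx2, a Polycomb chromodomain gene, 3.44-fold (160.4, 156 and 131 to 573 and 527). Bmi1, the Polycomb gene required by stem cells, fell from 1424, 1753 and 1689.6 to 717 and 553 (log2 difference -1.34 ± 0.31 SE, adjusted p = 0.00694), a call lost without Ly6D- CLP replicate 2. Ezh2, the H3K27 methyltransferase gene, was not called (adjusted p = 0.169).

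Of 22 imprinted genes tested (24 of 25 symbols matched, median -0.29), 6 were lower (27.3%, against 14.5% of all genes) and the other 16 were not called. Grb10, an adaptor that restrains insulin receptor signalling, fell from 2016, 2214 and 1980.2 to background (11.7 and 17.7, log2 difference -6.09 ± 0.20 SE, adjusted p = 3.70e-10). Ndn, the Necdin gene, fell 14-fold (1596, 1341 and 1238 to 70.9 and 98.3). Cdkn1c, given above, belongs to this group too. Sgce fell from 789, 722 and 704 to 36.5 and 89.9, with 2 probe sets of opposite sign (-3.34 to 0.08). Gnas and Impact were bright and not called.

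Genes of immune recognition changed in part. Of 10 MHC class II genes tested (10 of 11 symbols matched), 3 were higher (30%, against 9.66% of all genes), with a median of 0.61. H2-Ob, which encodes a chain of the peptide-loading modulator DO, rose 13.3-fold, from 381, 149 and 252 to 3159 and 3756 (log2 difference 3.74 ± 0.38 SE, adjusted p = 1.76e-05). H2-DMa, of the loading factor DM, rose 3.45-fold, and Cd74, the invariant chain gene, 1.99-fold. The surface chains H2-Aa (1004, 808 and 774 against 693 and 538), H2-Ab1 and H2-Eb1 were not called. Gimap7, of a GTPase family tied to lymphocyte survival, rose from 20.4, 16.5 and 23.3 to 176 and 176 (log2 difference 2.42 ± 0.18 SE, adjusted p = 9.23e-07), with 2 probe sets from -0.01 to 2.42. Gimap8 was the sole lower of 8 Gimap genes (12.5%, near the 14.5% of all genes), a call lost without Ly6D- CLP replicate 1. More were lower without Ly6D- CLP replicate 2.

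Interferon response genes went both ways, with 5 of 28 tested (29 of 32 symbols matched) higher and 7 lower (median -0.15). The shares were 17.9% and 25%, against 9.66% and 14.5% of all genes. The higher members were Stat2, Irf7, Oasl1, Mx1 and Xaf1, and their number was 2 without Ly6D- CLP replicate 2 and 3 without HSC young replicate 2 or 3. Stat2 and Xaf1 each lost the call with 4 of the 5 arrays left out in turn, and Irf7 and Mx1 without Ly6D- CLP replicate 2. Among the lower members, Isg20 lost its call when any of the 5 arrays was left out. Ifit3 did so with 3 of the 5 left out in turn, and Gbp2 without Ly6D- CLP replicate 2. Rsad2, which encodes the antiviral enzyme viperin, fell 8.94-fold (2089, 1698 and 2103 to 147 and 283) and Ifih1, which encodes the RNA sensor MDA5, 6.11-fold (2226, 2348 and 2503 to 757 and 179). Oasl1, another antiviral gene, rose 3.18-fold (74.6, 57.01 and 63.6 to 342 and 169). Irf1 was not called (1175, 1137 and 1103 and 1401 and 962). Immediate early genes, which respond to handling of cells, stood high on HSC young replicate 1 (mean log2 level 9.01, against 7.88 and 7.75 on the others and 8.47 on each Ly6D- CLP array). Egr1 and Fos read 5201, 864 and 916 and 13115, 5495 and 3644 in young HSC and were not called. Dusp2, a phosphatase of activated lymphocytes, rose 6.1-fold and was above every young HSC array (420.3, 290.4 and 249 against 1819 and 2174). Klf6 fell with a log2 difference -3.06 ± 0.85 SE, adjusted p = 0.0184, a call lost without HSC young replicate 1 or Ly6D- CLP replicate 2.

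Some lists of metabolic genes held many lower members. Of 37 genes of antioxidant defence and detoxification tested (37 of 40 symbols matched), 18 were lower (48.6%, against 14.5% of all genes). The other 19 were not called, and the median was -0.73. The count was 10 without Ly6D- CLP replicate 2. Sult1a1, a sulfotransferase, read 332, 369 and 317 in young HSC and 20.3 and 15.4 in Ly6D- CLP (log2 difference -3.39 ± 0.16 SE, adjusted p = 1.17e-08). Gstt1, a glutathione transferase, fell 5.7-fold (323, 249 and 240.0 to 32.5 and 35.2). Gpx1, a glutathione peroxidase, and Prdx2, a peroxiredoxin, were bright in both cell types and not called.

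Lipid synthesis genes moved both ways. Of 25 genes of sterol and fatty acid synthesis tested (26 of 30 symbols matched), 12 were lower and 5 higher, with a median of -0.91. The shares were 48% and 20%, against 14.5% and 9.66% of all genes. Fewer were lower without Ly6D- CLP replicate 2, and fewer higher without Ly6D- CLP replicate 1. Those that rose were Dhcr7, Srebf1, Fasn, Acaca and Elovl6. Dhcr7 lost its call when any of the 5 arrays was left out, and Srebf1 and Elovl6 without Ly6D- CLP replicate 1. Stard4, a cholesterol carrier, fell 8.42-fold (432, 467 and 463 to 75.8 and 17.9), Sc5d, a late enzyme of cholesterol synthesis, 7.01-fold and Fads2, a fatty acid desaturase, 5.86-fold. Fasn, the fatty acid synthase, rose 4.74-fold, from 355, 393 and 396 to 1962 and 1772 (log2 difference 2.24 ± 0.25 SE, adjusted p = 4.10e-05).

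Energy genes were called in both directions. Nuclear genes of the respiratory chain had 11 higher of 42 tested (26.2%, against 9.66% of all genes), and 7 without HSC young replicate 3. In this list 43 of 44 symbols matched, and the median was 0.30. Uqcrb was the sole lower member (2.38%, against 14.5% of all genes), a call lost without Ly6D- CLP replicate 2. The lower count was 4 without Ly6D- CLP replicate 1. Cox6a1, a subunit of cytochrome oxidase, rose 2.38-fold (2805, 2678 and 2762 to 6340.1 and 6777), and Sdhb, of succinate dehydrogenase, 2.08-fold, whereas Atp5a1, of the ATP synthase, was not called. In glycolysis and the hypoxia response 6 of 28 were lower (21.4%, against 14.5% of all genes), and fewer without Ly6D- CLP replicate 2. In that list 1 was higher (3.57%, against 9.66% of all genes), 31 of 34 symbols matched, and the median was -0.30. Hk1, a hexokinase, fell 3.12-fold and Ldhb, a lactate dehydrogenase chain, 3.1-fold, whereas Egln1, the oxygen sensor of the HIF pathway, rose 2.69-fold. Of 22 genes of mitochondrial fatty acid oxidation (22 of 23 symbols matched), 4 were lower (18.2%, near the 14.5% of all genes), 2 without HSC young replicate 2 or 3 and 7 without Ly6D- CLP replicate 1. These were Acadm, Acadvl, Hadh and Echs1, and each lost its call without Ly6D- CLP replicate 2. The sole higher member was Cpt1a, which encodes the enzyme that admits fatty acids to mitochondria (log2 difference 0.88 ± 0.24 SE, adjusted p = 0.0163), a call lost without HSC young replicate 1 or Ly6D- CLP replicate 1. Cytosolic ribosomal protein genes had 6 higher of 32 tested (33 of 49 symbols matched; 2 without Ly6D- CLP replicate 1), or 18.8% against 9.66% of all genes, with a median of 0.20. The sole lower member, Rps6, had a log2 difference -1.11 ± 0.29 SE, adjusted p = 0.0147 and lost its call without Ly6D- CLP replicate 2. Rps15 rose 2.66-fold and Rpsa was not called (16608, 16379 and 16409 and 16483 and 15653).

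**Figure D5:**
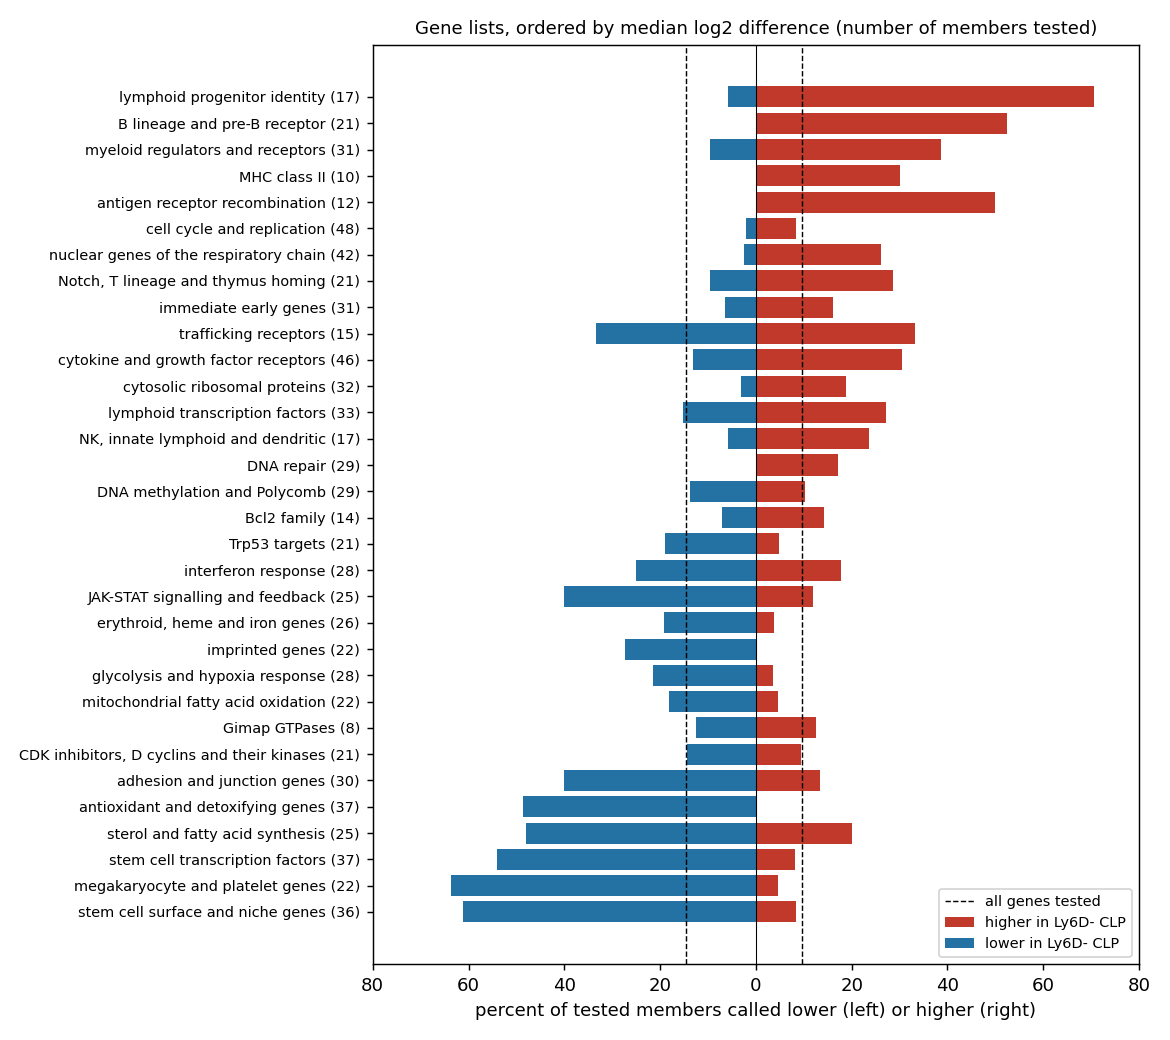
Bars give the percent of tested members of each of 32 lists that were called higher (red, to the right) or lower (blue, to the left) in Ly6D- CLP, with the number tested in brackets and the lists ordered by median log2 difference. Dashed lines mark the shares of all genes tested, 9.66% higher and 14.5% lower; lymphoid progenitor identity stands at the top and stem cell surface genes at the bottom.

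Several of the largest changes lay outside these lists. Atp8b4, a flippase gene of haematopoietic cells, read 34.5, 28.5 and 30.3 in young HSC and 2583 and 2054 in Ly6D- CLP (log2 difference 5.62 ± 0.24 SE, adjusted p = 5.85e-09). Cmah, the enzyme that makes the sialic acid Neu5Gc, and Chdh, choline dehydrogenase, were at or under background in young HSC and reached 684 and 1246 and 738 and 696. Cnn3, a calponin, rose 26.2-fold (96.4, 88.7 and 106 to 3113 and 2764), and Il12a, the p35 chain of interleukin-12, 25.4-fold (18.7, 16.5 and 19.4 to 748 and 972). Bex6 rose as well, from an uneven 47.8, 12.5 and 49.9 to 2050.5 and 1110.4 (log2 difference 4.95 ± 0.65 SE, adjusted p = 1.51e-04). In Ly6D+ CLP the values of Atp8b4 (2454 and 2288), Cmah (788 and 1111) and Cnn3 (3857 and 3299) lay near those of Ly6D- CLP, and those of Il12a (462 and 444) were lower.

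Among the falls, Tgm2, which encodes tissue transglutaminase, went from 3698, 4136 and 4231 to background (17.02 and 15.6, log2 difference -6.96 ± 0.19 SE, adjusted p = 1.68e-10). Fkbp9, a peptidyl-prolyl isomerase of the endoplasmic reticulum, went from 2536, 2502 and 2354 to 15.96 and 6.52 (log2 difference -6.53 ± 0.19 SE, adjusted p = 1.68e-10). Mamdc2, Slc18a2, the vesicular monoamine transporter, Pgap4, of GPI anchor remodelling, Slc16a12, a transporter of the monocarboxylate family, and Rai14 also reached background, from at least 1499, 1061, 673, 567 and 784 on the young HSC arrays. The 4 probe sets of Rai14 did not all have the same sign (-4.72 to 0.44). Myct1, a target of MYC, read 2499, 2191 and 2379 against 115 and 10.6, and Apoe, the lipid carrier apolipoprotein E, 1465, 1645 and 1901 against 48.01 and 25.03 (log2 difference -5.03 ± 0.47 SE, adjusted p = 7.44e-06). For Tgm2, Fkbp9, Grb10 and Procr the lowest of the 9 other HSC arrays read 5756, 1827, 719 and 1355, so that every HSC array of the series lay above both Ly6D- CLP arrays for these genes.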

How the data were processed

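RNA of sorted bone marrow cells was hybridised to Affymetrix mouse arrays, and the authors deposited a linear intensity for each of 45101 probe sets on 16 arrays; the background correction, probe set summary and normalisation behind these intensities are not stated in any label or file header used. Probe sets with 1 gene symbol (34945) gave 18193 genes, each read from the probe set with the highest mean log2 value; 932 probe sets with several symbols and 9160 with none were not named. Genes on X or Y (627) were left out, and 13894 of the other 17566 passed the filter of lying above the 40th percentile of the array on at least 2 of 16 arrays. Group means of log2(intensity + 16) were fitted over all 16 arrays (10 residual degrees of freedom) with limma 3.58.1 in R 4.3.3, moderated with eBayes and adjusted by Benjamini-Hochberg over all genes tested, and the fit was tested on simulated data. An exact permutation test of 2 against 3 arrays has 10 splits and cannot go below p = 0.1, so none is given. Background in the text means a group mean intensity at or below the mean of the 40th percentiles of its arrays. The number of arrays limits the precision. The 39 gene lists (845 of 926 symbols matched) were described by counts and medians with no test. Some lists share members. The members and lists were chosen with earlier results of these data known. Genes named were the 15 largest called changes in each direction whose arrays do not overlap, up to 6 called and 3 brightest uncalled genes per list, and a fixed set of lineage genes; members of counts of 5 or fewer that this rule leaves out (such as Ltb, Plek and Tcf12) were chosen after their values were seen. Levels of different genes were not compared.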

Additional observations from a re-analysis of the deposited data

Results flagged for a closer look

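Y-linked transcripts, which the comparison itself leaves out, stood above the young HSC arrays in Ly6D- CLP although every array was labelled female. The lowest Ly6D- CLP array read 614 for Eif2s3y, a translation factor gene, where the highest young HSC array read 9.25. For Kdm5d, a histone demethylase gene, the lowest Ly6D- CLP array read 145, and for Uty, another Y-linked gene, 18.8, against at most 6.94 and 8.86 in young HSC. The same signal stood on both Ly6D+ CLP arrays and on replicate 3 of the 32-week wild-type HSC. The part of sex in the autosomal results was not tested.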

How the results depend on the processing

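Against 3357 genes called (1342 higher and 2015 lower), the count in either direction ranged from 2242 to 2976 when each of the 5 arrays was left out in turn, with 929 to 1134 higher and 1257 to 1842 lower. The lowest of the lower counts came without Ly6D- CLP replicate 2, and with 1 array left in that arm the fit assumes that it varies like the other groups. Counts stayed within 1.5 times of these under the other alternatives: 3280 with quantile normalisation (1502 higher), 3180 with median centring, 3190 with no filter on dim genes, 3369 with the filter at the 60th percentile, 3240 with the mean of all probe sets, 3342 and 3276 with 1 and 64 added in place of 16, 3345 with a trended robust prior, 3440 with array weights, 2430 with HSC young replicates 2 and 3 counted as 1 sample, 3503 with X and Y genes kept, and 3483 without replicate 3 of the 32-week wild-type HSC. Fits on fewer groups called more, 4051 on the 5 arrays alone and 4362 without the 32-week groups. Counting every probe set apart gave 4039.

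With the replicate number as a block the count was 3230 (1362 higher and 1868 lower). The groups share only the numbers 1 and 2, whose deviations correlated at 0.115 and 0.112, so the numbers were not taken to pair the samples.

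Of the 308 genes named by the rule 194 were called, and none of these 194 reversed under any alternative run. Bcl2l11, a death activator gene that was not called (log2 difference -0.19), was higher by 0.44 and called with the mean of all its probe sets. Between 153 and 194 of these 194 kept their call in each alternative other than the 60th percentile filter, which left out 2 of them, and 55 lost it when some array was left out. The medians of the Bcl2, Trp53, DNA methylation and Polycomb, neutrophil and late erythroid lists changed sign under some alternative. The precision rests on 2 and 3 arrays, and a gene near background has only a bound on its change.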

Other observations

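Polg, which encodes the mitochondrial DNA polymerase that the mutator mice of this series carry in altered form, read 149, 175 and 179 in young HSC and 254 and 456 in Ly6D- CLP (log2 difference 0.97 ± 0.26 SE, adjusted p = 0.0149), and the call was lost without Ly6D- CLP replicate 2. Of the stroma and endothelium markers that fell, 3 are given here by array. Lpl, the lipoprotein lipase gene, read 172, 563 and 431 in young HSC and 11.1 and 86.96 in Ly6D- CLP (log2 difference -2.79 ± 0.51 SE, adjusted p = 0.00171). Col1a2, a collagen chain gene, read 157, 225 and 301 against 40.9 and 38.1 (log2 difference -2.09 ± 0.42 SE, adjusted p = 0.00293), and Emcn, the endomucin gene of vessels and stem cells, 87.3, 87.3 and 96.9 against 28.3 and 26.3 (log2 difference -1.30 ± 0.22 SE, adjusted p = 0.00102). Lepr, the leptin receptor gene of marrow stroma, was not called and read 17.5, 14.3 and 14.9 and 15.5 and 18.8. The iron exporter gene Slc40a1 varied widely between the Ly6D- CLP arrays (29.5 and 286), as did Cd163, a haemoglobin scavenger receptor of macrophages (24.7 and 228), and neither was called. Without Ly6D- CLP replicate 2 the fall of Slc40a1 was called.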
